A study of Homo sapiens with 12 samples.

Results

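Glycolysis splits glucose into pyruvate in the cytosol and yields ATP without oxygen. The 10 genes described here follow that route in order: SLC2A1, which encodes the glucose transporter GLUT1; HK1 and HK2, the hexokinases that trap glucose in the cell as glucose 6-phosphate; PFKP, the platelet-type phosphofructokinase, at the main point of control; ALDOA, the aldolase that cuts fructose 1,6-bisphosphate; GAPDH, PGK1 and ENO1, which carry the products of that cut toward phosphoenolpyruvate; PKM, the pyruvate kinase; and LDHA, the lactate dehydrogenase subunit that turns pyruvate into lactate. They were taken by their Ensembl identifiers as named members of the pathway, and all 10 were found among the 20595 genes of the deposited table. Tumor cells commonly run this route fast even with oxygen present, and many of its genes are known targets of the hypoxia-inducible factor HIF-1. The tumor suppressor p53 is known to restrain glucose uptake and glycolytic flux.

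RNA was measured in A549 and H1792, human lung adenocarcinoma cell lines that both carry MDM2 amplification. A549 has wild-type (WT) p53 and H1792 has mutant p53, as the series describes them. Cells of each line received the vehicle DMSO or 1 μM RG7112, an inhibitor of the nutlin family that blocks the binding of MDM2 to p53, and were collected after 48 h. There were 3 replicates in each of the 4 groups, named A549 DMSO, A549 RG7112, H1792 DMSO and H1792 RG7112. The names of the table columns carry 0.1 μM in place of 1 μM, and the dose of the labels is used here. Each genetic background is 1 cell line, so p53 status and any other difference between the lines cannot be told apart, and nothing states whether replicates were separate cultures, so p-values measure the spread between these samples, which may be technical.

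The libraries held 2011916 to 6218825 counts each, and 3 counts, the number below which a gene was taken as at the limit of counting, stood for 0.465 to 1.43 CPM (the counts of a gene scaled to a common library total, with TMM factors over all 12 samples). The treatment left its mark on p53 target genes in A549, where 6 of 8 listed targets rose (4.35% of all genes did), among them CDKN1A (log2 fold change 3.58, adjusted p = 0.0252, edgeR's quasi-likelihood test as everywhere below) and MDM2 itself (2.99, adjusted p = 0.0102). CDKN1A was at 203, 190 and 942 CPM in the treated A549 samples. Its log2 fold change was 2.41 without RG7112 replicate 3, and its call was lost without any 1 of the DMSO replicates (3.35 to 3.72), as that of MDM2 was without DMSO replicate 2. In H1792 1 of 7 tested targets rose, ZMAT3, and 1 fell, TP53I3 (of all genes 17.7% rose and 16.5% fell). The ZMAT3 call was lost under 11 of 16 alternatives and that of TP53I3 under 10 of 17, the GC correction among them for both. Of the 6 epithelial markers, keratins were abundant in A549 (summed level of the 6 markers 14484 to 24068 CPM) and lower in H1792 (1069 to 2185 CPM), and EPCAM stayed at or below 6.23 CPM in every library. The 4 alveolar markers, NKX2-1, NAPSA, SFTPB and SFTPC, summed to 1.74 to 6.25 CPM in A549 and to 0.231 to 1.31 CPM in H1792. In each A549 group, 1 of the 4 was above the limit of counting in every library. NKX2-1, SFTPB and SFTPC were at or near 0 in both lines. The 8 markers of other cell types summed to 18.4 to 108 CPM in A549 and to 1120 to 1442 CPM in H1792. In each H1792 group, 3 of the 8 were above the limit of counting in every library. The fibroblast collagens COL1A1 and COL1A2 were present in H1792 (COL1A2 at 896 to 1135 CPM). PTPRC and CD3E, which mark blood cells, and the endothelial markers PECAM1 and CDH5 were at or near 0. The list also held COL3A1 and the blood marker CD68. Each sample was a bulk culture of 1 cell line, so fewer cells expressing a gene and less RNA per cell cannot be told apart.

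Sequences are shown for the members that changed with RG7112 in either line, which were LDHA in A549 and ALDOA, GAPDH, ENO1 and PKM in H1792, since hypoxia-inducible factors bind a short core, ACGTG or GCGTG, on either strand. The 250 bases before the RefSeq start site (GRCh38.p14) were searched for all 10 members. Of the 5 that changed, 4 held at least 1 core, as did 43.2% of 35116 RefSeq promoters, and PKM held none. Each line below gives 30 bases, read 5′ to 3′ on the strand of the gene, with the core or its reverse complement in capitals; the capitals CACGTG hold the core on both strands.
LDHA: agactcccagcgCACGTGgagcagtctgcc
LDHA: actcaCACGTGggttcccgCACGTccgccg
GAPDH: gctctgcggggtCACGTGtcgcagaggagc
ALDOA: ccttcccctccaCACGTcaacgattctatt
ENO1: cacccccctttcCACGCtactgcagccgtc
ENO1: ggagctgaggggGCGTGccccggaggcggg

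These windows lay at chr11:18394366-18394395 and chr11:18394471-18394500 on the plus strand for LDHA, at chr12:6535171-6535200 on the plus strand for GAPDH, at chr16:30064089-30064118 on the plus strand for ALDOA, and at chr1:8878835-8878864 and chr1:8878741-8878770 on the minus strand for ENO1. All of them except that of GAPDH overlapped an untranslated region of an annotated transcript (GENCODE v29). LDHA had 5 core matches, with each CACGTG counted on both strands, and HK2 and PGK1 had 3 each. In each of these genes the matches lay at 3 separate places. In all, 6 of the 10 members held a core, beside 43.2% of 35116 RefSeq promoters of the same length. The windows of the 10 members had a median GC content of 71.2%, beside 58.0% for all these promoters. The shares were not matched for GC content, so they do not show an excess of cores. The core ACGTG alone stood in 18.5% of those promoters and GCGTG in 32.2%. The E-box CACGTG, which contains the first core on both strands, stood in 6.34% of them and occurred among the members in LDHA at 2 places and in GAPDH at 1. The GC box GGGCGG stood in 42.6% of all promoters and, among the 5 members shown, in GAPDH, ENO1 and PKM. A match describes the letters of the window and shows neither binding nor its absence.

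**Figure D1:**
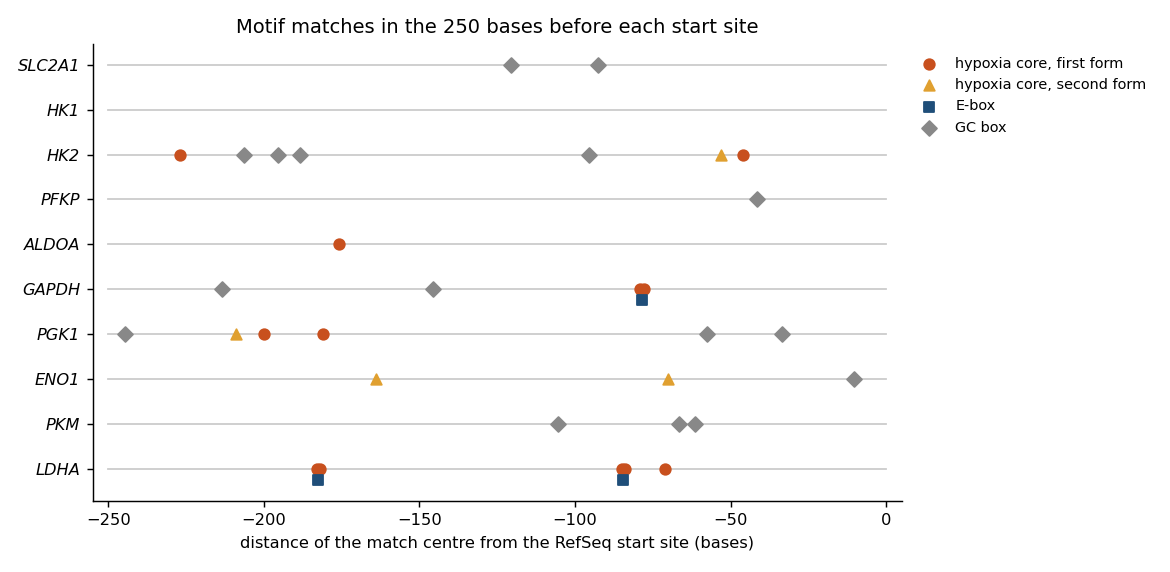
Positions of motif matches (symbols) along the 250 bases before the RefSeq start site of each of the 10 genes, with the distance from the start in bases on the horizontal axis. The first form of the hypoxia core is ACGTG and the second is GCGTG. LDHA has 5 core matches, with each CACGTG counted on both strands, and SLC2A1, HK1, PFKP and PKM have none.

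With DMSO alone, GAPDH was by far the most abundant of the 10 transcripts in both lines. Divided by transcript length, its level was 14029 ± 853 CPM per kb (SD, n = 3) in A549 and 20912 ± 1175 in H1792. ENO1 came next in both lines (3406 ± 372 and 6412 ± 350 CPM per kb), followed by ALDOA (1233 ± 365 and 2192 ± 199) and LDHA (883 ± 138 and 638 ± 62.4). PGK1, SLC2A1 and PKM lay between 110 and 237 CPM per kb. In A549, ALDOA and LDHA differed by less than the sum of their SDs, and the other neighbours among the 8 most abundant genes of each line differed by more. PFKP stood at 10.4 ± 1.75 CPM per kb in A549 and 7.43 ± 2.49 in H1792. The hexokinases were barely counted: HK1 had 4 to 56 counts per library and HK2 0 to 66, with HK2 at 0 in 6 of the 12 libraries. Replicates also differed, with HK2 at 0 to 66 counts within H1792 RG7112. Moderate changes in hexokinase RNA were therefore not detectable at this depth and with this spread.

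The lines also differed from each other before treatment. Of the 8 members tested between A549 DMSO and H1792 DMSO, 6 differed, where 49.7% of all 10330 tested genes did. ALDOA, GAPDH, ENO1 and PKM were lower in A549, and SLC2A1 and LDHA were higher, beside 23.2% and 26.5% of all genes, respectively. The groups of 7 of these 8 members did not overlap (5 lower and 2 higher in A549), as those of 61.1% of all tested genes did not (29.8% lower). HK1, too low to be tested, was also lower in A549 without overlap (2.19 to 2.74 CPM beside 2.82 to 6.98 CPM). The largest difference among the 8 was that of ENO1, at 7227, 7795 and 8940 CPM in A549 and 14146, 15763 and 15199 CPM in H1792. The log2 difference, A549 minus H1792, was -0.87 for ENO1 (SE 0.0949, adjusted p = 0.000482), and the groups were far apart. It was 0.38 for SLC2A1 (adjusted p = 0.00708) and 0.51 for LDHA (adjusted p = 0.0133). PFKP (0.54, adjusted p = 0.165) and PGK1 (-0.14, adjusted p = 0.190) did not pass the test. The ALDOA call was lost without A549 DMSO replicate 2 (-0.69), and that of LDHA without H1792 DMSO replicate 1 (0.50) or 3 (0.43). No member differed by over 2-fold between the lines, against 35.5% of all genes that both passed the test and did so; by DESeq2, 6 members passed the test as well.

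**Figure D2:**
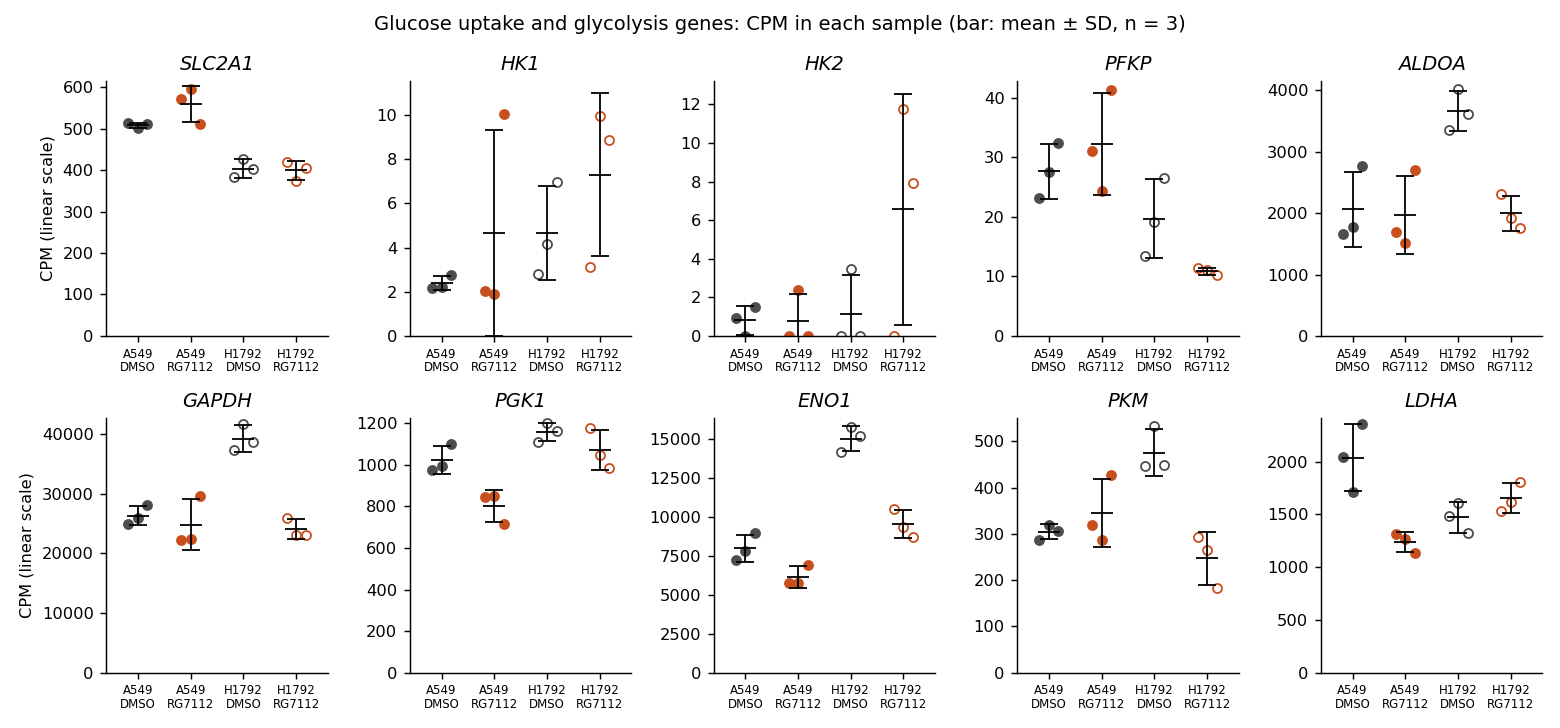
CPM (linear scales, each from 0) of the 10 genes in the 12 samples, with filled points for A549, open points for H1792, grey for DMSO and orange for RG7112; horizontal and vertical bars give the mean and SD of 3 replicates, cut at 0. LDHA is lower with RG7112 in A549 without overlap, and ALDOA, GAPDH, ENO1 and PKM are lower in H1792 without overlap.

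In A549, RG7112 lowered 1 of the 8 members that could be tested, LDHA, where 8.38% of 10739 genes were called in either direction and 4.03% as lower. LDHA (ENSG00000134333, chr11:18394388-18408425, plus strand) was at 2041, 1715 and 2351 CPM with DMSO and at 1317, 1262 and 1132 CPM with RG7112. Every treated sample was below every control. LDHA fell 1.65-fold (log2 fold change -0.72, SE 0.1503, 95% interval -1.07 to -0.36, adjusted p = 0.0306). It did not reach 2-fold, which 6.19% of all genes did together with the test. The call rested on all 6 libraries: without any 1 of them the log2 fold change ranged from -0.83 to -0.60 and the adjusted p from 0.0522 to 0.107.

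The other A549 members did not pass the test, but 2 of them had groups that did not overlap, as 32.4% of all tested genes did. PGK1, which makes the first ATP of the pathway's payoff phase, was at 974, 993 and 1098 CPM with DMSO and at 846, 848 and 715 CPM with RG7112 (log2 fold change -0.35, SE 0.126, adjusted p = 0.146). ENO1, the enolase that forms phosphoenolpyruvate, was at 7227, 7795 and 8940 CPM with DMSO and at 5736, 5742 and 6926 CPM with RG7112 (-0.38, SE 0.143, adjusted p = 0.159). Both stood below their controls in all 3 treated samples, like LDHA.

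SLC2A1, PFKP and ALDOA had overlapping groups in A549. SLC2A1 was at 513, 501 and 511 CPM with DMSO and at 572, 596 and 512 CPM with RG7112 (log2 fold change 0.14, 95% interval -0.13 to 0.41, adjusted p = 0.529). PFKP was at 23.1, 27.5 and 32.4 CPM with DMSO and at 31.2, 24.3 and 41.3 CPM with RG7112 (0.23, 95% interval -0.39 to 0.84, adjusted p = 0.659). ALDOA was at 1655, 1768 and 2765 CPM with DMSO and at 1698, 1506 and 2702 CPM with RG7112 (-0.067, 95% interval -0.74 to 0.60, adjusted p = 0.918). Replicate 3 was the highest ALDOA sample in both A549 groups, and the interval of ALDOA was the widest of the 8. Without DMSO replicate 3 its log2 fold change was 0.20, and without RG7112 replicate 3 it was -0.36.

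GAPDH, the dehydrogenase often used as a loading reference, was at 24917, 25944 and 28054 CPM in A549 with DMSO and at 22218, 22334 and 29668 CPM with RG7112 (log2 fold change -0.089, 95% interval -0.46 to 0.28, adjusted p = 0.785). PKM was at 287, 319 and 306 CPM with DMSO and at 320, 286 and 427 CPM with RG7112 (0.18, 95% interval -0.22 to 0.58, adjusted p = 0.585). For both genes, replicate 3 of the treated cells was the highest of the 6 samples. HK1 (2.19, 2.22 and 2.74 CPM with DMSO; 2.01, 1.91 and 10.1 CPM with RG7112) and HK2 (0.937, 0 and 1.49 CPM; 0, 2.38 and 0 CPM) were too low to be tested.

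In H1792, RG7112 lowered 4 of the 10 members, ALDOA, GAPDH, ENO1 and PKM, where 34.1% of 9914 genes were called in either direction and 16.5% as lower. ALDOA (ENSG00000149925, chr16:30064164-30070457, plus strand) was at 3359, 4018 and 3619 CPM with DMSO and at 2311, 1920 and 1751 CPM with RG7112. It fell 1.75-fold (log2 fold change -0.80, SE 0.109, adjusted p = 0.00439). The annotated gene AC093512.2 overlaps ALDOA on the same strand and holds 261 counts over all 12 libraries. Reads from the shared stretch could have been split between them.

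GAPDH (ENSG00000111640, chr12:6533927-6538374, plus strand) was at 37347, 41641 and 38639 CPM with DMSO and at 25967, 23063 and 22993 CPM with RG7112 in H1792. It fell 1.55-fold (log2 fold change -0.63, SE 0.0649, adjusted p = 0.00282). ENO1 (ENSG00000074800, chr1:8861000-8879250, minus strand) was at 14146, 15763 and 15199 CPM with DMSO and at 10511, 9374 and 8733 CPM with RG7112. It fell 1.497-fold (-0.58, SE 0.0775, adjusted p = 0.00417). In both genes the treated samples lay well below all controls.

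PKM (ENSG00000067225, chr15:72199029-72231822, minus strand) was at 446, 534 and 448 CPM with DMSO and at 293, 266 and 182 CPM with RG7112. Its fall was the steepest of the 4, at 1.83-fold (log2 fold change -0.87, SE 0.172, adjusted p = 0.0113). The table adds transcripts up to genes, so the M1 and M2 isoforms of PKM are not told apart. None of the 4 fell by over 2-fold, a size that 14.6% of all genes passed together with the test. Without any 1 library all 4 still passed the test. By DESeq2, 5 members passed it, LDHA being the fifth and higher, and at an unadjusted p under 0.05 in edgeR's test 6 did, beside 46.0% of all genes.

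PFKP was the remaining H1792 member whose groups did not overlap, as those of 53.3% of all tested genes did not (28.4% lower and 24.9% higher). It was at 13.4, 19.2 and 26.6 CPM with DMSO and at 11.4, 11.03 and 10.2 CPM with RG7112 (log2 fold change -0.78, SE 0.283, adjusted p = 0.0747). LDHA was at 1483, 1607 and 1321 CPM with DMSO and at 1535, 1620 and 1808 CPM with RG7112 (0.25, SE 0.0909, adjusted p = 0.0780), so its groups overlapped in H1792.

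PGK1 and SLC2A1 kept close to their H1792 controls. PGK1 was at 1112, 1201 and 1162 CPM with DMSO and at 1176, 1048 and 986 CPM with RG7112 (log2 fold change -0.040, 95% interval -0.22 to 0.14, adjusted p = 0.714). SLC2A1 was at 383, 427 and 402 CPM with DMSO and at 420, 375 and 405 CPM with RG7112 (0.059, 95% interval -0.11 to 0.22, adjusted p = 0.540). Both genes had treated samples above and below their control means. HK1 (2.82, 4.15 and 6.98 CPM with DMSO; 3.10, 9.96 and 8.85 CPM with RG7112; log2 fold change 0.75, adjusted p = 0.320) and HK2 (0, 3.46 and 0 CPM; 0, 11.7 and 7.91 CPM; log2 fold change 2.35, adjusted p = 0.271) rested on few counts and had overlapping groups.

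**Figure D3:**
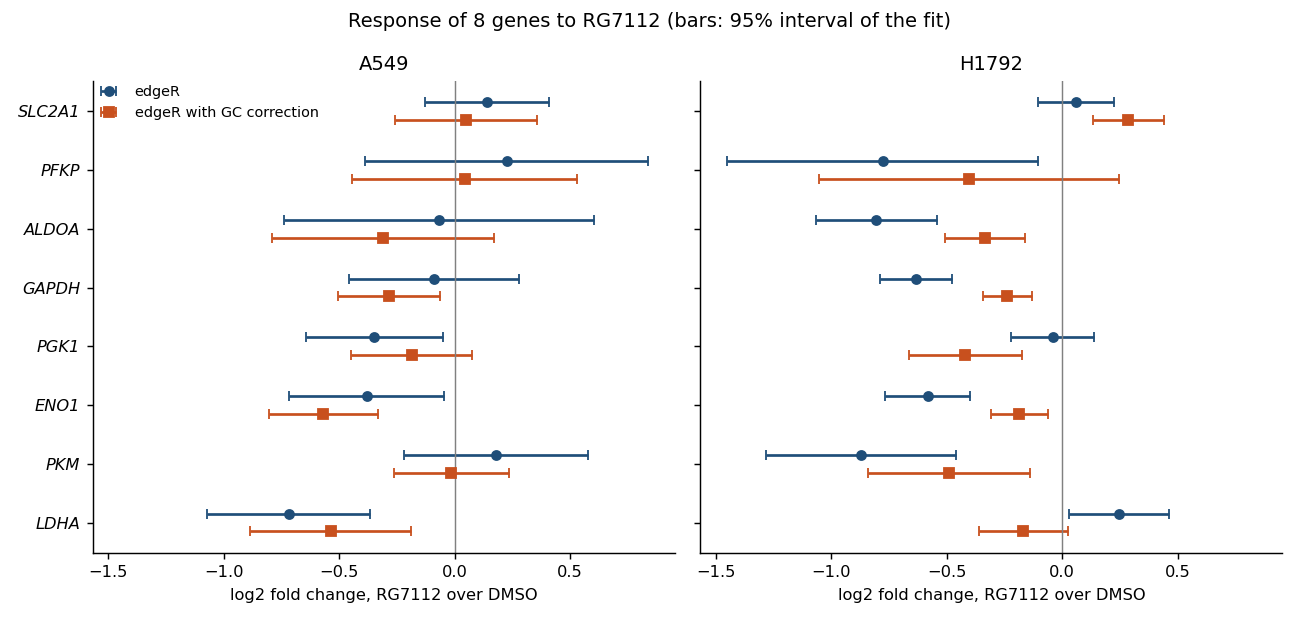
Log2 fold change, RG7112 over DMSO, of the 8 genes tested in both lines, from edgeR without (blue circles) and with (orange squares) a correction for GC content; bars are 95% intervals. In A549 LDHA lies at -0.72 without the correction and -0.54 with it, and in H1792 ALDOA, GAPDH, ENO1 and PKM lie from -0.87 to -0.58 without it and from -0.49 to -0.19 with it.

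Levels of the 4 enzymes that fell in H1792 were correlated over the samples. They were grouped by that shared fall, and centring within a line keeps the difference between treatments. High coefficients among these 4 were therefore largely set by their choice and do not show a link beyond the treatment. Over the 12 samples, with log2 CPM centred within each line, GAPDH correlated with ALDOA (Pearson r = 0.94), ENO1 (0.92) and PKM (0.91), whereas LDHA correlated with PGK1 (0.69) and hardly with GAPDH (-0.11). These coefficients describe samples that share libraries, treatment and base composition of the transcripts. By the same measure, the genes outside the pathway whose pattern was most like the mean of the 10 members were RAC1 (r = 0.96), SART1 (0.94), NCLN (0.94), GOT1 (0.94) and CCDC137 (0.94), out of 11656 genes.

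The summed level of the 10 members, 61.2% to 70.4% of which was GAPDH, was lower after RG7112 in all 3 H1792 samples and overlapped in A549. In H1792 it was 58291, 65218 and 60823 CPM with DMSO and 42228, 37699 and 36885 CPM with RG7112. In A549 it was 37640, 39065 and 44062 CPM with DMSO and 32739, 32603 and 42134 CPM with RG7112. After RG7112 the means were 38937 ± 2879 CPM in H1792 and 35825 ± 5464 CPM in A549 (SD, n = 3), and with library size only in place of TMM they were 42656 ± 1529 and 35419 ± 2490 CPM. As a share of raw counts, with no scaling between samples, the members took 5.25% to 5.45% of the H1792 DMSO libraries and 4.16% to 4.44% after RG7112, and in A549 4.10% to 4.26% and 3.40% to 3.83%, so by this measure the groups overlapped in neither line.

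The scaling between samples mattered in H1792. With library size only in place of TMM, the median log2 fold change of all genes moved from 0.0096 to 0.27, and 75.6% of the called genes were higher in place of 51.8%. ALDOA (-0.55), GAPDH (-0.37), ENO1 (-0.32) and PKM (-0.61) still fell, while PGK1 (0.22), SLC2A1 (0.32) and LDHA (0.51) rose. For the differences of response and for the DMSO comparison, the same scaling moved the share of called genes that were higher in A549 from 47.7% to 23.0% and from 53.3% to 63.3%, and the medians from 0.020 to -0.37 and from 0.076 to 0.29.

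Whether the response itself differed between the lines was tested as an interaction over all 12 samples. It passed the test for 3 of the 10 members, LDHA, PKM and GAPDH, where 21.8% of 11666 genes passed. The log2 fold change of LDHA in A549 was lower than that in H1792 by 0.89 (difference -0.89, SE 0.180, 95% interval -1.28 to -0.49, adjusted p = 0.00734). Those of PKM and GAPDH were higher in A549, by 1.13 (SE 0.262, adjusted p = 0.0136) and by 0.62 (SE 0.169, adjusted p = 0.0253), beside 10.4% of all genes higher and 11.4% lower. The GAPDH call was lost without any 1 of A549 DMSO replicates 1 and 2, H1792 DMSO replicates 2 and 3 and H1792 RG7112 replicates 2 and 3 (0.54 to 0.63), and with library size only (0.21). The difference exceeded 1 on the log2 scale for PKM alone among the called members, and 17.4% of all genes passed the test with a difference of that size. For PFKP (1.08, adjusted p = 0.0710), ALDOA (0.81, adjusted p = 0.110) and ENO1 (0.28, 95% interval -0.081 to 0.63, adjusted p = 0.248) a difference between the lines was not shown by this test. DESeq2 called PFKP (1.14, adjusted p = 0.0377) and ALDOA (0.88, adjusted p = 0.0498), and edgeR called ALDOA without A549 DMSO replicate 3 (1.07, adjusted p = 0.0273) and PFKP without H1792 DMSO replicate 1 (1.28, adjusted p = 0.0373).

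Base composition moved with these results. In H1792 the median log2 fold change of all tested genes went from 0.52 among transcripts under 45% GC to -0.47 among those at 60% or more, and in A549 it went the other way, from -0.21 to 0.23. LDHA (42.7% GC) and PGK1 (43.3%) are the AT-rich members, and PFKP, PKM, GAPDH, ENO1 and ALDOA lie between 58.1% and 60.8%. After a loess correction for GC content, the falls in H1792 were smaller: ALDOA -0.33 (adjusted p = 0.0185), GAPDH -0.24 (adjusted p = 0.0120), ENO1 -0.19 (adjusted p = 0.0404) and PKM -0.49 (adjusted p = 0.0520). PGK1 (-0.42, adjusted p = 0.0278) then fell and SLC2A1 (0.29, adjusted p = 0.0216) rose.

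In A549 the corrected LDHA value was -0.54 (adjusted p = 0.0651), and ENO1 passed the test at -0.57 (adjusted p = 0.0141). The other corrected values there, none of which passed, were ALDOA -0.31, GAPDH -0.28, PGK1 -0.19, PKM -0.014, PFKP 0.043 and SLC2A1 0.050. With the correction 0 of the 10 members differed in response between the lines, and the LDHA difference was -0.33 (adjusted p = 0.222); without it edgeR called 3 and DESeq2 5. The part of GC content in the differences between treatments was not tested.

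**Figure D4:**
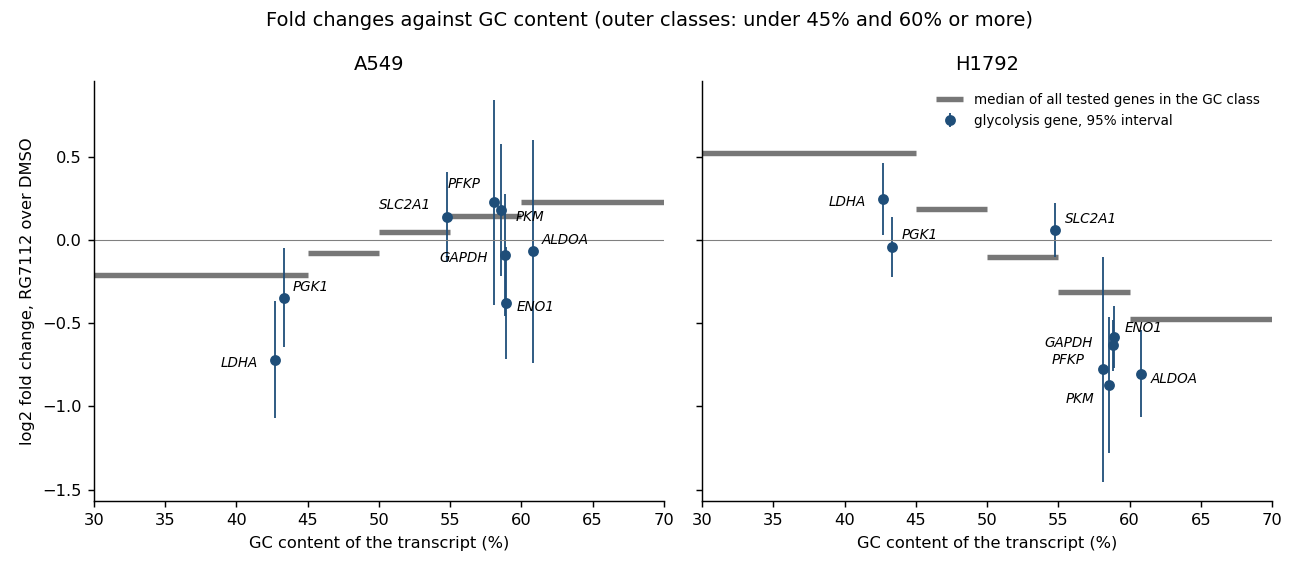
Log2 fold change, RG7112 over DMSO, against the GC content of the transcript (%) for the 8 genes tested in both lines (blue points, bars are 95% intervals), with the median of all tested genes in 5 GC classes (grey lines). In H1792 the medians go from 0.52 to -0.47 with rising GC content and in A549 from -0.21 to 0.23. ALDOA, GAPDH, ENO1, LDHA and PGK1 lie below their class in both lines, and PKM and PFKP in H1792 only.

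Isoenzymes and the missing steps of glycolysis were read from a list of 16 further enzymes and glucose transporters. In A549 1 of the 13 tested rose, beside 4.35% of all genes: ALDOC, the brain-type aldolase, was at 45.9, 37.5 and 41.8 CPM with DMSO and at 80.7, 86.3 and 96.7 CPM with RG7112 (log2 fold change 1.07, SE 0.166, adjusted p = 0.0106). Every treated sample was well above the controls, while ALDOA of the same step overlapped. In H1792 5 of the 10 tested fell and 2 rose, beside 16.5% and 17.7% of all genes. PFKL, the liver-type phosphofructokinase, fell from 80.7, 95.1 and 72.8 CPM to 22.99, 19.7 and 28.4 CPM (-1.73, SE 0.177, adjusted p = 0.00282).

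TPI1, the triose phosphate isomerase, fell in H1792 from 958, 1000.3 and 872 CPM to 690, 515 and 560 CPM (log2 fold change -0.61, adjusted p = 0.00948). ENO2, the neuronal enolase, fell as well (-1.66, adjusted p = 0.0330), as did ALDOC (-0.66, adjusted p = 0.0135) and LDHB (-0.23, adjusted p = 0.0283), the heart-type lactate dehydrogenase subunit. PFKM, the muscle-type phosphofructokinase, rose slightly (0.26, adjusted p = 0.0239), as did ADPGK, an ADP-dependent glucokinase named after its value was seen (0.33, adjusted p = 0.0188). The calls of ENO2, ALDOC, LDHB and PFKM were each lost without some single libraries, and LDHB turned to 0.034 with library size only. With the GC correction 2 of the 10 fell and 2 rose. ALDOC and ENO2 differed in response between the lines (1.81, adjusted p = 0.000321, and 2.90, adjusted p = 0.00650, A549 minus H1792), as did PFKL (2.38, adjusted p = 0.000412).

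Among 11 regulators of glycolytic flux found in the table, 1 of 9 tested rose in A549 (4.35% of all genes did): PFKFB4, a bifunctional enzyme that sets the level of fructose 2,6-bisphosphate, at 3.75, 3.07 and 2.99 CPM with DMSO and at 12.7, 10.5 and 9.78 CPM with RG7112 (log2 fold change 1.75, adjusted p = 0.0190). In H1792 3 of 7 rose (17.7% of all genes did). HIF1A, the oxygen-regulated subunit of HIF-1, was at 10.9, 9.23 and 14.4 CPM with DMSO and at 42.1, 51.95 and 51.45 CPM with RG7112 (2.16, SE 0.223, adjusted p = 0.00285). PFKFB3, another bifunctional enzyme of that family, rose from 76.8, 75.0 and 71.1 CPM to 110, 123 and 115 CPM (0.72, adjusted p = 0.00386). The third was TXNIP, an inhibitor of glucose uptake named after its values were seen, with 0 to 3 counts per library under DMSO and 58 to 80 counts under RG7112. These genes rose in the same samples in which ALDOA, GAPDH, ENO1 and PKM fell.

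Of the hypoxia targets outside glycolysis, 6 of 10 tested rose in H1792 (4 with the GC correction), where 17.7% of all genes rose. Their median log2 fold change was 0.64, beside -0.31 for the 10 glycolysis members and 0.0096 for all genes. With the GC correction these medians were 0.40, -0.21 and 0.040, and with library size only 0.90, -0.053 and 0.27. NDRG1, a stress-response gene, rose from 4.23, 5.77 and 4.36 CPM to 31.0, 42.9 and 31.9 CPM (log2 fold change 2.93, adjusted p = 0.00272). CA12, a carbonic anhydrase of the cell surface, rose from 35.9, 27.9 and 28.8 CPM to 139, 220 and 224 CPM (2.73, adjusted p = 0.00272). The rises were 7.64-fold and 6.66-fold. In A549 2 of 12 rose, beside 4.35% of all genes: ADM, which encodes adrenomedullin (0.68, adjusted p = 0.0177), and P4HA2, a collagen prolyl hydroxylase subunit (0.77, adjusted p = 0.0409). The A549 calls of PFKFB4, ADM and P4HA2 were each lost without some single libraries.

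Pathways that branch from glycolysis had called genes in H1792. Of the 11 genes for transport and oxidation of pyruvate and lactate, 2 rose and 1 fell there, beside 17.7% and 16.5% of all genes. SLC16A1, the lactate transporter MCT1 (log2 fold change 2.03, adjusted p = 0.00801), and DLAT, a subunit of the pyruvate dehydrogenase complex (1.00, adjusted p = 0.00393), rose, and PDHA1, another subunit of it, named after its value was seen, fell (-0.26, adjusted p = 0.0217). In the pentose phosphate pathway RPE, the ribulose phosphate epimerase, named after its value was seen, rose (0.51, adjusted p = 0.0466). TKT, the transketolase, fell slightly (-0.21, adjusted p = 0.0259) but turned to 0.044 with library size only and to 0.18 with the GC correction. Of 3 gluconeogenesis genes, G6PC3, a glucose 6-phosphatase, fell (-1.26, adjusted p = 0.00313).

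In A549 edgeR called 0 of 9, 0 of 6 and 0 of 3 genes of these 3 lists, beside 8.38% of all genes. At an unadjusted p under 0.05 in edgeR's test there were 2, 2 and 0, beside 23.9% of all genes. DESeq2 called 1, 1 and 0, beside 13.4% of all genes. Epithelial markers moved with the falls in H1792: 4 of 5 tested fell, beside 16.5% of all genes, led by KRT18 (log2 fold change -1.04, adjusted p = 0.00437) and KRT7 (-0.79, adjusted p = 0.00658), and their summed level went from 1818 to 2185 CPM with DMSO down to 1069 to 1337 CPM with RG7112. With the GC correction 1 of the 5 fell. In A549 1 of 5 rose (4.35% of all genes did), KRT19 (1.27, adjusted p = 0.00602). The part of epithelial state in the glycolysis results was not tested.

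**Figure D5:**
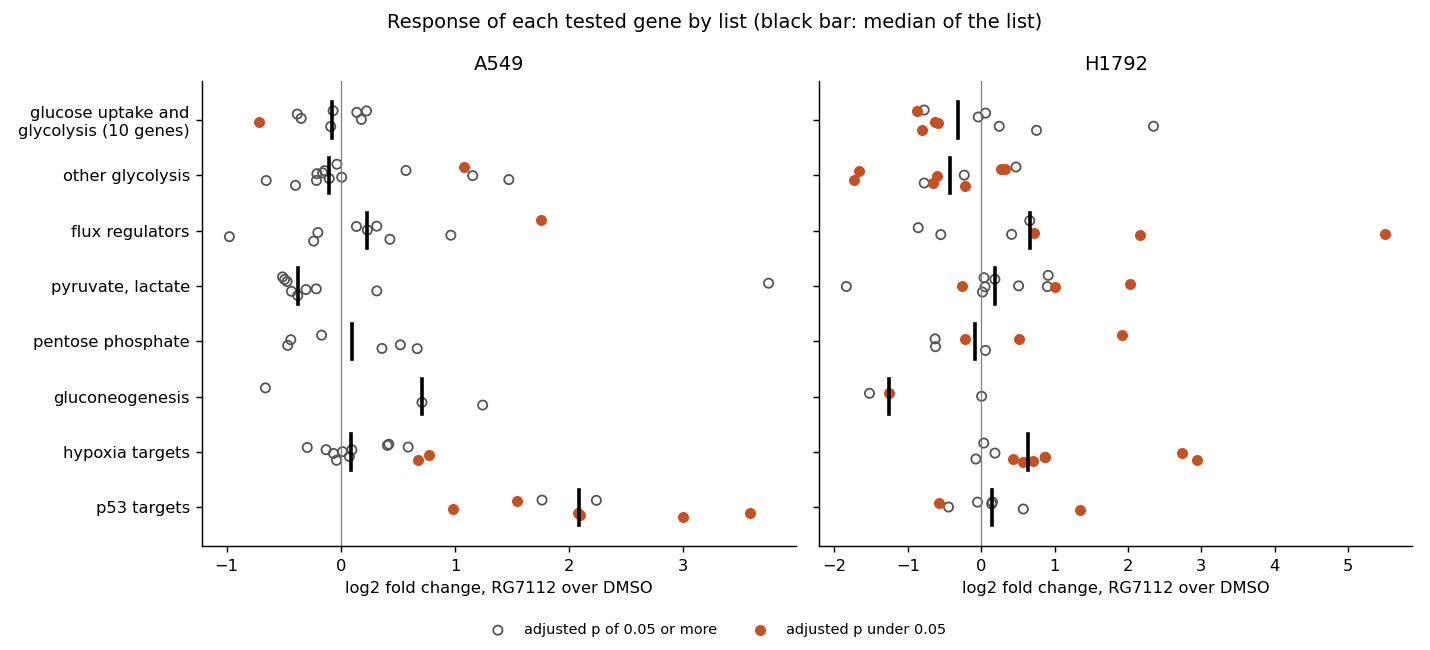
Log2 fold change, RG7112 over DMSO, of each tested gene (points) in 8 lists, with filled orange points for an adjusted p under 0.05 and black bars for the median of a list; the horizontal scales of the panels differ. Without the GC correction, in H1792 the 10 glycolysis genes have a median of -0.31 and the hypoxia targets 0.64, and in A549 the medians are -0.078 and 0.086.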

How the data were processed

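RNA-seq of 12 samples was used (4 groups, 3 replicates each). The authors deposited estimated counts from kallisto 0.45.0 (GRCh38), whole in the table, with transcripts summed within each gene. The labels give reads of 38 nt, and the paper's methods describe longer reads. Counts were analysed in R 4.3.3 with edgeR 4.0.16: filterByExpr (minimum count 10, minimum total 15), TMM and a robust quasi-likelihood test per cell line, over all 12 samples for the interaction and over the 6 DMSO samples between lines, with Benjamini-Hochberg adjustment over all tested genes (threshold 0.05). SE is the log2 fold change divided by the root of F. Printed CPM use TMM over all 12 samples, and fold changes come from each fit, so they can differ slightly. Lengths and GC content come from the GENCODE v29 transcript with the longest coding sequence, for 17982 genes, and promoters and start sites from RefSeq. Replicates differed by 5.12 to 23.3 times counting noise (chi-square per degree of freedom), so no pair agreed within sampling noise. The floor of 3 counts covers counting error only.

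The members and lists were chosen with earlier results of these data known. All 10 members were named, with the 2 genes of smallest p among those called per list and line, isoenzymes, CDKN1A, MDM2 and the 5 most alike genes. The tests were checked on simulated data. Alternatives were DESeq2 1.42.0, limma-trend (limma 3.58.1), other scalings and filters, a GC correction (loess, span 0.5), the replicate number as a block and leaving out each sample. Some results are not reported here.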

Additional observations from a re-analysis of the deposited data

Results flagged for a closer look

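The response to RG7112 differed between the cell lines for 3 of the 10 members, by the interaction test of edgeR over all 12 samples. The log2 fold change of LDHA in A549 minus that in H1792 was -0.89 (adjusted p = 0.00734), with all 3 treated A549 samples below their controls and overlapping groups in H1792. That of PKM was 1.13 (adjusted p = 0.0136) and that of GAPDH 0.62 (adjusted p = 0.0253), and both genes were below their controls in all 3 treated H1792 samples. With the GC correction none of the 3 passed the test.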

How the results depend on the processing

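Over the 36 member results, 650 alternative values were computed, of which 572 kept direction and side of the threshold, 29 lost the threshold, 22 gained it and 27 reversed. The cause of each change was not tested unless fewer samples or a stricter threshold made it. In A549 the 1 member called became 2 with library size only, 2 with all 12 samples in one fit, 0 at an adjusted p under 0.01, 0 with a log2 fold change over 1 as well, and 0 to 0 without any 1 replicate. In H1792 the 4 became 7 with library size only and 0 with the fold threshold. The 3 differences of response became 5 with DESeq2, 0 with the GC correction, 1 at an adjusted p under 0.01, 1 with the fold threshold and 2 to 4 without 1 replicate, and the 6 differences between lines became 0 with the fold threshold. With library size only, the 10 members of H1792 summed to 53482 ± 1043 CPM in DMSO cells and to 42656 ± 1529 CPM in treated cells.

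The replicate numbers were not taken as pairs. Same-numbered deviations correlated at 0.137, 0.0692 and 0.299 in A549 and at -0.0375, -0.0149 and 0.000402 in H1792. Not every A549 sample correlated best with its own number. Replicate 3 stood apart in both A549 groups, at -0.236 to -0.144 with replicates 1 and 2 of the other group. A549 pairs with replicate 3 differed by 15.5 to 23.3 times counting noise, and the other A549 pairs by 5.12 and 5.63. The main A549 test has no term for this, and the block moved the SE of ALDOA there from 0.284 to 0.0874. With the replicate block 2 members were called in A549 (ENO1 was added, adjusted p = 0.0384 in edgeR's test) and 4 in H1792, and 4 differences of response (ALDOA was added, 0.81, adjusted p = 0.0224), and with the block and the GC correction 3 and 0, with 0 differences of response.

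Reversed in A549 were PKM (-0.014 with the GC correction, -0.017 with the block and the GC correction) and ALDOA (-0.36 to 0.20 without 1 replicate). Reversed in H1792 were PGK1 (0.22 with library size only, 0.027 with at least 10 counts in every sample, -0.11 to 0.0079 without 1 replicate), LDHB (0.034 with library size only), TKT (0.044 with library size only, 0.18 with the GC correction, 0.18 with the block as well), LDHA (-0.17 and -0.16 with the GC correction without and with the block) and SLC2A1 (-0.015 with all 12 samples in one fit). Reversed differences of response were those of SLC2A1 (-0.24 with library size only, -0.14 with the GC correction, -0.15 with the block as well), HK1 (-0.17 with library size only, -0.0586 with limma-trend, -0.0021 with the block, -0.18 with the block and the GC correction, -0.94 to 0.66 without 1 replicate), ENO1 (-0.12 with library size only, -0.26 with the GC correction, -0.26 with the block as well) and PGK1 (0.27 with the GC correction, 0.28 with the block as well). PGK1 between lines became 0.079 with library size only.

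Of all genes, 900 were called in A549, 1438 with DESeq2, 1557 with all 12 samples and 321 to 725 without 1 replicate. In H1792 3384 were called, 1840 with the block, 914 with the block and the GC correction and 1851 to 3377 without 1 replicate. Of the differences of response 2539 were called, 1666 with the GC correction, 1537 with the block as well and 1584 to 2978 without 1 replicate. HK1 and HK2 were limited by low counts and by their spread between replicates.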
